A study of Homo sapiens with 6 samples.

Results

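Regulated secretion genes were examined in AN3CA cells (an established line from a human endometrial cancer) as a set of 10 genes given by name: *VGF*, *CHGA*, *CHGB*, *SCG2* and *SCG3* (granin-family precursors and sorting proteins), *CPE*, *PAM* and *PCSK1* (enzymes that process peptide precursors), and *PCSK1N* and *SCG5* (an inhibitor and a chaperone of the convertases). The table listed 17471 genes, among them 9 of the 10; *PCSK1* was not among the listed genes and is not analysed here. *VGF* and *CPE* were chosen by the size of their difference between the groups and the other genes by their role, with results of the same comparison in view, so the differences of these 10 genes are described and not tested. Gene expression had been measured by RNA-seq of total RNA as TPM (reads scaled by gene length and then to a fixed total per library, so that values are per length). In the control group (shEV, labelled WT, 3 libraries) cells carried a lentiviral vector without a hairpin, and in the knockdown group (shPAX2, labelled PAX2 KD, 3 libraries) cells carried a hairpin against *PAX2*, a developmental transcription factor. Both groups were puromycin-selected populations grown in the same medium with serum. The study describes a single hairpin sequence for this line, and calls the AN3CA control an empty vector in its methods and scrambled elsewhere. The labels do not say that replicates came from separate cultures, so the spread between libraries, and every p built on it, may be technical.

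Neuroendocrine cells store peptide hormones in dense-core granules and release them when calcium rises. Granins are acidic proteins that aggregate in the trans-Golgi network and help to form these granules. Their peptides, like those of other prohormones, are cut out by prohormone convertases, trimmed of basic residues at the C-terminus by carboxypeptidase E (CPE) and in part amidated by *PAM*. *VGF* is a growth-factor-inducible precursor of several secreted peptides and is known chiefly from neurons and endocrine cells. CREB, which acts downstream of cAMP, and *REST*, a repressor that keeps many neuronal genes off in other cells, are known regulators of granule genes.

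The targeted gene and the libraries were checked first. *PAX2* stood at 4.03, 3.66 and 2.74 TPM in shEV and at 0.916, 0.723 and 1.17 TPM in shPAX2, so the shPAX2 mean was 26.9% of the shEV mean and every shPAX2 library lay below every shEV library. Depth, recovered from the TPM values as whole reads, was 10778743 to 18302976 reads in shEV and 19506926 to 29536918 reads in shPAX2, so that depth did not overlap between the groups. Of 13163 genes tested with limma on log2(TPM + 0.5), 188 were higher (1.43%) and 410 lower (3.11%) in shPAX2 at an adjusted p under 0.05 with a log2 fold change of at least 1 in size. Under quantile normalization the same rule gave 240 higher and 293 lower genes. Without shPAX2 replicate 1, 2 or 3 the 188 higher genes became 134, 100 and 104, and a gene off in shEV then has too few libraries to be tested. An adjusted p under 0.05 alone was reached by 12.2% of the genes upward and 30.5% downward. Over all tested genes the median log2 fold change stood at -0.10, and at 0.0053 after median-of-ratios scaling, so small differences are to be read against that shift. AN3CA is labelled epithelial, but *EPCAM*, *CDH1*, *KRT8* and *KRT19* were below 0.5 TPM in every library, as were 12 of 13 listed epithelial markers. The exception was *KRT18*, at 10.2 to 12.9 TPM in shEV and 11.9 to 17.5 TPM in shPAX2.

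Among the granin-family precursors, *VGF* moved from a trace to the most abundant of the listed set. The gene lies at chr7:100805790-100808850 (GRCh37, minus strand). The shEV libraries held 9, 15 and 17 *VGF* reads, or 0.657, 0.665 and 0.737 TPM in replicates 1 to 3. The shPAX2 libraries held 1574, 1535 and 926 reads, or 40.3, 44.6 and 37.2 TPM. The groups lay far apart and each was tight: the means were 0.686 ± 0.0444 TPM for shEV and 40.7 ± 3.73 TPM for shPAX2 (± SD over 3 libraries a group, as for all means here). The ratio of the means was 59.3, and the ratio of the pooled reads after allowing for depth was 60.3 with an exact 95% interval of 44.3 to 84.1, which covers counting error only. The log2 fold change was 5.11 (SE 0.10) on the log2(TPM + 0.5) scale, and adding 0.5 makes it smaller than the ratio of means for a gene this low in shEV. In shEV the library values spread by 6.48% of the mean, less than the 27.8% that counting error alone would give for so few reads. By rank of TPM within a library, *VGF* moved from positions 12823 to 12867 in shEV to positions 3659 to 4239 in shPAX2.

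**Figure D1:**
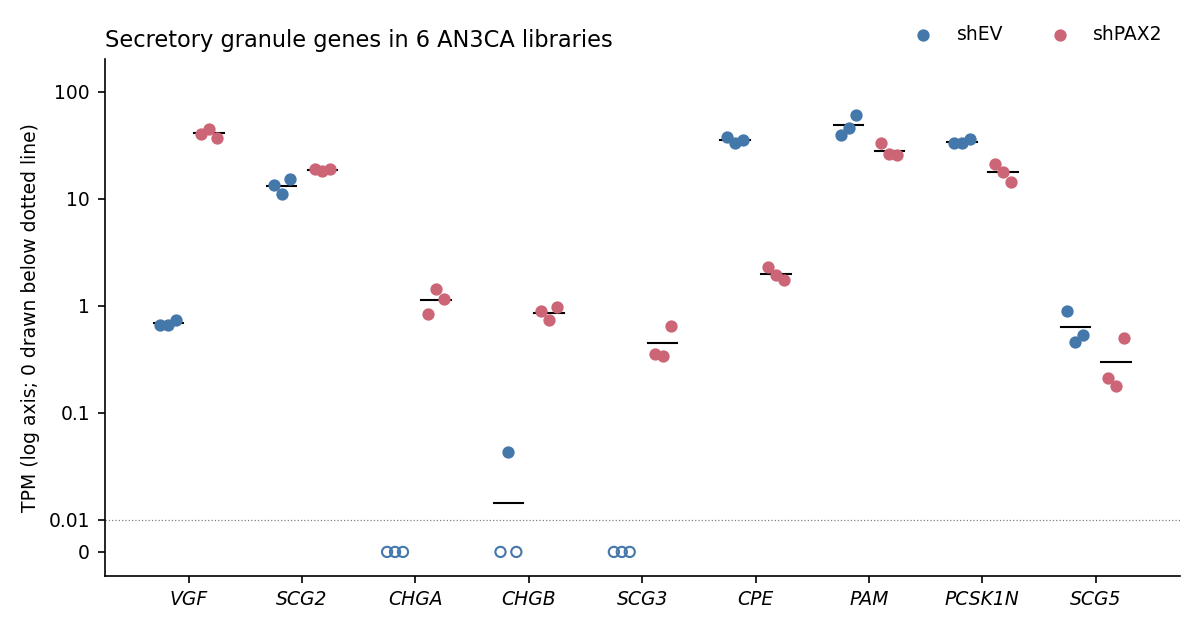
TPM of the 9 listed genes in each library on a log axis, with shEV in blue and shPAX2 in red; black bars are group means, and open circles below the dotted line are libraries at 0. *VGF* and *CPE* change places between the groups, *CHGA* and *SCG3* are at 0 in every shEV library, and only *SCG5* has overlapping groups.

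*CHGA* (chromogranin A) and *CHGB* (chromogranin B), the classical granule matrix proteins, were low in both groups and were detected almost only after knockdown. *CHGA* (chr14:93389495-93401630, plus strand) had no read in any shEV library, against 26, 39 and 23 reads in shPAX2, or 0.832, 1.42 and 1.15 TPM. Taking 3 reads per library as the limit that a count of 0 allows, the shPAX2 mean of 1.13 ± 0.293 TPM was at least 5.65-fold higher than shEV. At that mean, 12.4, 20.5 and 20.9 reads would have fallen in shEV replicates 1 to 3. *CHGB* (chr20:5892156-5905999, plus strand) had 0, 1 and 0 reads in shEV and 36, 26 and 25 reads in shPAX2, where its level was 0.888, 0.728 and 0.967 TPM. The ratio of the pooled reads after allowing for depth was 53.3, with a wide exact 95% interval of 9.31 to 2128 because 1 read stood behind the shEV side. Both genes stayed near 1 TPM in shPAX2, far below *VGF*.

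Of the genes grouped here as granin-family precursors, *SCG2* (secretogranin II, the precursor of secretoneurin) was the one above a trace in control cells. The gene (chr2:224461658-224467079, minus strand) stood at 13.3, 11.1 and 15.2 TPM in shEV and at 18.8, 18.2 and 19.0 TPM in shPAX2. The groups did not overlap, but the difference was small beside that of *VGF*: 13.2 ± 2.04 against 18.7 ± 0.396 TPM, a ratio of 1.41 and a log2 fold change of 0.49 (SE 0.10). *SCG3* (secretogranin III, chr15:51973689-52013223, plus strand), which tethers chromogranin A to the granule membrane, had no read in shEV and 18, 15 and 21 reads in shPAX2, or 0.355, 0.336 and 0.650 TPM. Its shPAX2 mean of 0.447 ± 0.176 TPM was at least 3.61-fold higher than the limit for 3 reads per shEV library, and 7.95 to 13.4 reads would have fallen in a shEV library at that level.

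The make-up of this group of granin-family genes therefore differed as well as its summed level. *VGF*, *CHGA*, *CHGB*, *SCG2* and *SCG3* summed to 13.9 ± 2.05 TPM in the shEV libraries and to 61.8 ± 3.25 TPM in the shPAX2 libraries. The sum and its shares leave out *PCSK1N* and *SCG5*, grouped here with the convertases. *PCSK1N* alone stood at 34.1 ± 1.55 TPM in shEV and 17.6 ± 3.31 TPM in shPAX2. In shEV, *SCG2* made up 94.9% ± 0.760 of the sum and *VGF* 4.98% ± 0.552. In shPAX2, *VGF* made up 65.7% ± 2.60 and *SCG2* 30.3% ± 2.19. *CHGA*, *CHGB* and *SCG3* together held 0.120% ± 0.208 in shEV and 3.96% ± 0.673 in shPAX2. In bulk RNA, a change in the number of cells that carry a transcript and a change in its level per cell cannot be told apart.

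**Figure D2:**
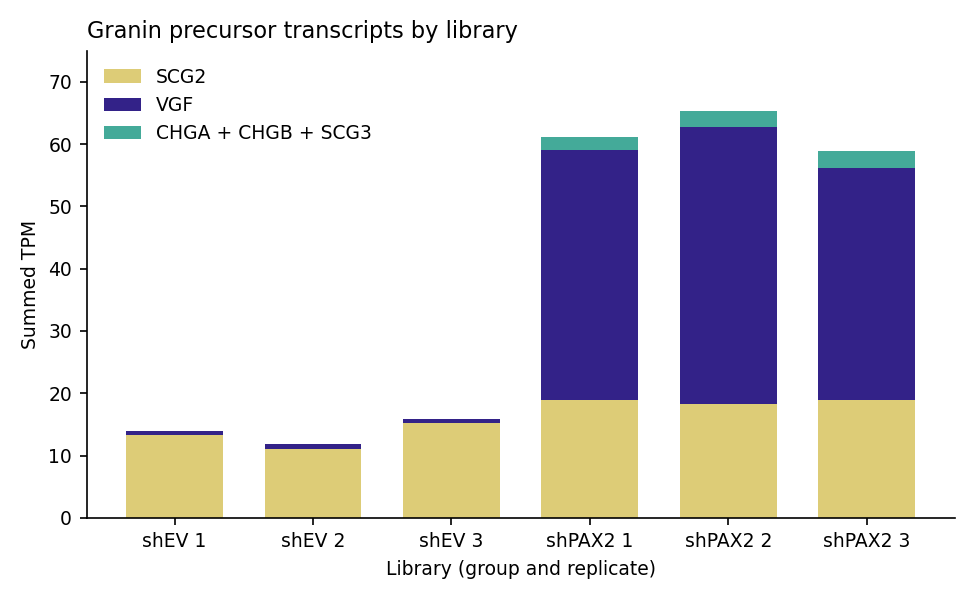
Summed TPM of the 5 genes grouped here as granin-family in each library, without *PCSK1N* and *SCG5*, stacked by gene from 0. The shEV bars are almost wholly *SCG2*, at 11.8 to 15.9 TPM, and the shPAX2 bars reach 58.9 to 65.3 TPM with *VGF* as the largest share.

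The processing enzymes and their partners were at lower or overlapping levels in shPAX2. *CPE*, the carboxypeptidase that removes basic residues left by convertase cleavage and is also a sorting receptor in some endocrine cells, showed the largest difference. The gene lies at chr4:166282346-166419699 (GRCh37, plus strand). It stood at 37.7, 33.2 and 35.1 TPM in shEV, from 492, 712 and 770 reads, and at 2.29, 1.92 and 1.73 TPM in shPAX2, from 85, 63 and 41 reads. Every shPAX2 library lay far below every shEV library. The means were 35.3 ± 2.29 and 1.98 ± 0.283 TPM, so shPAX2 held 5.60% of the shEV level, and the log2 fold change was -3.86 (SE 0.10). *CPE* moved from ranks 4327 to 4760 in shEV to ranks 11450 to 11689 in shPAX2.

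*PAM*, the enzyme that amidates the C-terminus of many neuropeptides (chr5:102089685-102365434, plus strand), stood at 39.3, 46.1 and 60.5 TPM in shEV and at 32.8, 25.9 and 25.5 TPM in shPAX2. The groups did not overlap, with a wide spread in shEV: 48.6 ± 10.8 against 28.1 ± 4.13 TPM, or 57.7% of the shEV mean, and a log2 fold change of -0.77 (SE 0.18). *PCSK1N* (proSAAS, the precursor of an inhibitor of the *PCSK1* convertase, chrX:48689506-48694012, minus strand) stood at 33.0, 33.4 and 35.8 TPM in shEV and at 21.0, 17.6 and 14.3 TPM in shPAX2. Its shPAX2 mean of 17.6 ± 3.31 TPM was 51.7% of the shEV mean of 34.1 ± 1.55 TPM, with a log2 fold change of -0.95 (SE 0.12). The convertase that *PCSK1N* inhibits was not listed, so the pair cannot be compared. *SCG5* (7B2, the chaperone of the *PCSK2* convertase, chr15:32933877-32989299, plus strand) was near the detection limit, with 6, 5 and 6 reads in shEV and 4, 3 and 6 reads in shPAX2. Its groups overlapped at 0.455 to 0.898 and 0.179 to 0.494 TPM, and the pooled read ratio of 0.468 had an exact 95% interval of 0.209 to 1.02. A readthrough transcript, *ARHGAP11A-SCG5*, overlaps *SCG5* on the same strand, so its few reads are of uncertain origin.

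Of the 9 listed genes, 8 had groups that did not overlap, where 44.7% of all listed genes did so. The set was proposed on this comparison, so the 2 shares are given side by side and nothing is read from them. A filter on low values (at least 0.5 TPM in at least 3 libraries) left 7 of the 10 genes, and 2 of these, *CHGA* and *CHGB*, passed only through their shPAX2 libraries. *SCG3* and *SCG5* fell below the filter.

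The order of the levels, which TPM allows because it is per length, also differed. In shEV the order was *PAM*, *CPE*, *PCSK1N*, *SCG2*, *VGF*, *SCG5* and then *CHGB*, *CHGA* and *SCG3* at or near 0. *CPE* and *PCSK1N* did not differ beyond their spread there, and neither did *VGF* and *SCG5*. In shPAX2 the order was *VGF*, *PAM*, *SCG2*, *PCSK1N*, *CPE*, *CHGA*, *CHGB*, *SCG3* and *SCG5*, and the neighbours *SCG2* and *PCSK1N*, *CHGA* and *CHGB*, and *SCG3* and *SCG5* overlapped. The ratio of *CPE* to *VGF* transcripts was 51.7 ± 5.16 in shEV and 0.0488 ± 0.00709 in shPAX2. The other processing partners kept more of their level than *CPE* did, so that the ratio of *PAM* to *CPE* was 1.38 ± 0.340 in shEV and 14.2 ± 0.657 in shPAX2, and that of *PCSK1N* to *CPE* 0.966 ± 0.0809 and 8.86 ± 0.498.

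Other genes of regulated secretion were then read from the same fit, from lists by function chosen with earlier results of these data known. Of 245 genes outside the set, 164 were listed and 112 were tested. Past both thresholds, 6 were higher (5.36%, against 1.43% of all tested genes) and 5 lower (4.46%, against 3.11%). At an adjusted p under 0.05 alone, 15 were higher and 43 lower (13.4% and 38.4%, against 12.2% and 30.5%), and 20 and 31 after median-of-ratios scaling. The median log2 fold change of the 112 genes was -0.17, beside -0.10 for all tested genes. Of the 6 higher genes, 2 (*UNC13A* and *CPLX1*) passed the filter only through the 3 shPAX2 libraries, so a difference was built into their being tested. Without shPAX2 replicate 3 the 11 calls became 7, and the 6 higher genes became 3 without shPAX2 replicate 2 or 3, in part because *UNC13A* and *CPLX1* were then not tested.

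Among 19 tested processing enzymes, 1 was higher past both thresholds (5.26%, against 1.43% of all tested genes) and 0 were lower (against 3.11%). *PCSK5*, a convertase of broad tissue distribution, had 216, 289 and 293 reads in shEV and 2271, 1965 and 1523 reads in shPAX2, and rose from 3.61 ± 0.455 to 15.4 ± 0.550 TPM, a log2 fold change of 1.96 with a limma adjusted p of 1.87e-06. *FURIN*, the ubiquitous convertase of the trans-Golgi network, stood at 19.3 ± 1.09 and 22.7 ± 0.394 TPM (log2 fold change 0.23, limma adjusted p = 0.0195). Its limma adjusted p was 0.0584 and 0.0579 when shEV replicate 2 or 3 was left out, and 0.0784 when shPAX2 replicate 2 was. *PCSK2*, the neuroendocrine convertase that acts beside *PCSK1*, was not among the listed genes. The carboxypeptidase *CPD*, which performs a trimming step like that of *CPE* in the Golgi, fell to 48.0 ± 4.93 TPM in shPAX2 (log2 fold change -0.32, limma adjusted p = 0.0108), where it stood far above *CPE*. *CPD* was named after its values were seen. The median over the list was -0.06, and 0.05 after median-of-ratios scaling. At an adjusted p under 0.05 alone 5 of the 19 genes were higher and 4 lower, beside 12.2% and 30.5% of all tested genes.

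Peptide precursors other than granins were mostly absent: of 81 precursor genes, 30 were listed and 11 tested. Past both thresholds 1 was higher (9.09%, against 1.43% of all tested genes) and 0 were lower (against 3.11%). *APLN*, the precursor of apelin, was the 1 gene past both thresholds, with 15, 31 and 26 reads in shEV and 64, 161 and 133 reads in shPAX2, or 0.949 ± 0.121 and 3.08 ± 1.56 TPM. Its log2 fold change was 1.19 with a limma adjusted p of 0.0358. The call was lost without any 1 of the 3 shEV libraries or without shPAX2 replicate 2 or 3, with limma adjusted p of 0.0741 to 0.109. The genes of this list with the highest levels were *GNAS*, *NUCB2*, *NUCB1* and *NMU*, at 48.5 to 122 TPM on average in shPAX2. These are totals per gene, which do not separate transcripts that encode a peptide precursor from others. *GNAS*, *NUCB2* and *NUCB1* fell by log2 values between -0.42 and -0.30, at limma adjusted p of 0.000672 to 0.00881. These 4 genes were named after their values were seen. At an adjusted p under 0.05 alone 1 of the 11 genes was higher and 4 lower, beside 12.2% and 30.5% of all tested genes. After median-of-ratios scaling these counts were 1 and 3. The list median was -0.30, and -0.19 after that scaling. Of the proteins reported to bind *VGF* peptides, *C3AR1* was not among the listed genes, and *C1QBP*, a mainly mitochondrial protein, stood at 456 ± 4.27 and 518 ± 35.9 TPM (log2 fold change 0.18, limma adjusted p = 0.0469). That p was 0.102 to 0.193 without any 1 of the 3 shEV libraries or without shPAX2 replicate 2 or 3.

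**Figure D3:**
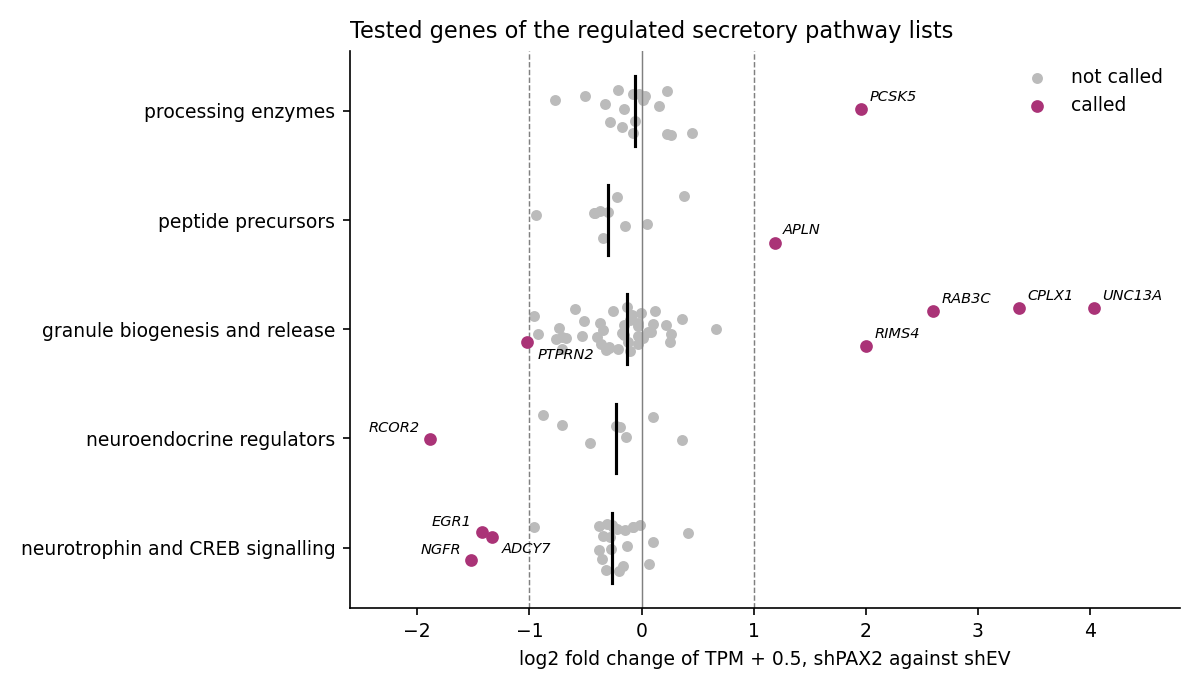
log2 fold change of TPM + 0.5 (shPAX2 against shEV) for each tested gene of the 5 larger pathway lists, with called genes named in purple, black bars at the list medians and dashed lines at a log2 fold change of 1 in either direction; vertical scatter within a list has no meaning. Most genes lie close to the medians, which run from -0.30 to -0.06, and 4 release genes and *PCSK5* stand at 1.96 or above.

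The granule biogenesis and release list had 47 tested genes, with 4 higher (8.51%, against 1.43% of all tested genes) and 1 lower (against 3.11%) past both thresholds. Of these 4, *UNC13A* and *CPLX1* are given as a description with no p, because they were tested only through their shPAX2 libraries. *UNC13A*, which primes vesicles for fusion, had 5, 4 and 3 reads in shEV and 1234, 1167 and 857 reads in shPAX2, from 0.0581 ± 0.0322 to 8.64 ± 0.391 TPM (log2 fold change 4.03). *CPLX1* (complexin 1), which clamps and times fusion, had 4, 4 and 2 reads in shEV and 233, 195 and 140 reads in shPAX2, and 6.86 ± 0.222 TPM there (log2 fold change 3.36). *RAB3C*, a small GTPase of secretory vesicles, rose from 0.544 ± 0.377 to 5.50 ± 0.184 TPM (log2 fold change 2.60, limma adjusted p = 0.000258). Few reads stood behind its shEV side, with 4, 7 and 1 there and 87, 72 and 55 in shPAX2. *RIMS4*, of the family of active zone scaffolds, rose from 1.87 ± 0.212 to 9.02 ± 1.31 TPM (a ratio of 4.82, limma adjusted p = 9.49e-06).

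Over the whole list, at an adjusted p under 0.05 alone, 7 of the 47 genes were higher and 19 lower, beside 12.2% and 30.5% of all tested genes. After median-of-ratios scaling these counts were 10 and 15. The list median was -0.13, and -0.04 after that scaling. *PTPRN2*, a transmembrane protein of the dense-core granule membrane, fell to 36.2% of its shEV mean, from 57, 73 and 81 reads in shEV and 54, 51 and 27 in the deeper shPAX2 libraries (log2 fold change -1.02, limma adjusted p = 0.00104). It lay at the fold threshold and dropped under it without shEV replicate 1 (-0.94) or shPAX2 replicate 3 (-0.94), as it did with either other scaling (-0.94 and -0.80). *SNAP25*, the neuronal fusion protein, had no read in shEV and 9, 9 and 2 reads in shPAX2, and was not tested. *PTPRN*, the relative of *PTPRN2* in islet and neuronal granules, had at most 6 reads in any library. *SNAP25* and *PTPRN* were named after their values were seen.

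Neuroendocrine regulators were next. *REST*, the repressor of neuronal genes, stood at 34.4, 31.4 and 36.3 TPM in shEV and at 19.3, 21.5 and 21.1 TPM in shPAX2, with no overlap (log2 fold change -0.71, limma adjusted p = 0.000126). *RCOR2*, a corepressor of the CoREST family, stood at 15.5, 22.7 and 31.1 TPM in shEV and at 5.75, 6.10 and 5.16 TPM in shPAX2 (log2 fold change -1.89, limma adjusted p = 0.00246). It was the 1 gene of 9 tested past both thresholds, where 3.11% of all tested genes were lower by them. Of the 9, 5 were lower and 0 higher at a limma adjusted p under 0.05, where 30.5% of all tested genes were lower and 12.2% higher, and 4 and 0 after median-of-ratios scaling, with a median log2 fold change of -0.23. RNA levels alone say nothing about *REST* protein or its occupancy.

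The neurotrophin and CREB signalling list holds genes of the pathways through which *VGF* is known to be induced in neurons. It also holds immediate early genes such as *EGR1*, so it is not a list of *VGF* inducers alone. Among 25 tested genes 0 were higher and 3 lower past both thresholds, where 1.43% and 3.11% of all tested genes were. *NGFR*, the low-affinity neurotrophin receptor, fell from 14.7 ± 0.248 to 4.82 ± 0.514 TPM (log2 fold change -1.52, limma adjusted p = 6.11e-06). *EGR1*, an immediate early transcription factor, fell from 37.6 ± 3.71 to 13.6 ± 0.740 TPM (log2 fold change -1.43, limma adjusted p = 5.05e-06). *ADCY7*, an adenylate cyclase, fell from 1.98 ± 0.384 to 0.477 ± 0.0663 TPM (log2 fold change -1.34, limma adjusted p = 0.000363). At an adjusted p under 0.05 alone, 1 gene was higher and 11 lower of the 25, beside 12.2% and 30.5% of all tested genes, or 2 and 7 after median-of-ratios scaling. The median was -0.26.

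**Figure D4:**
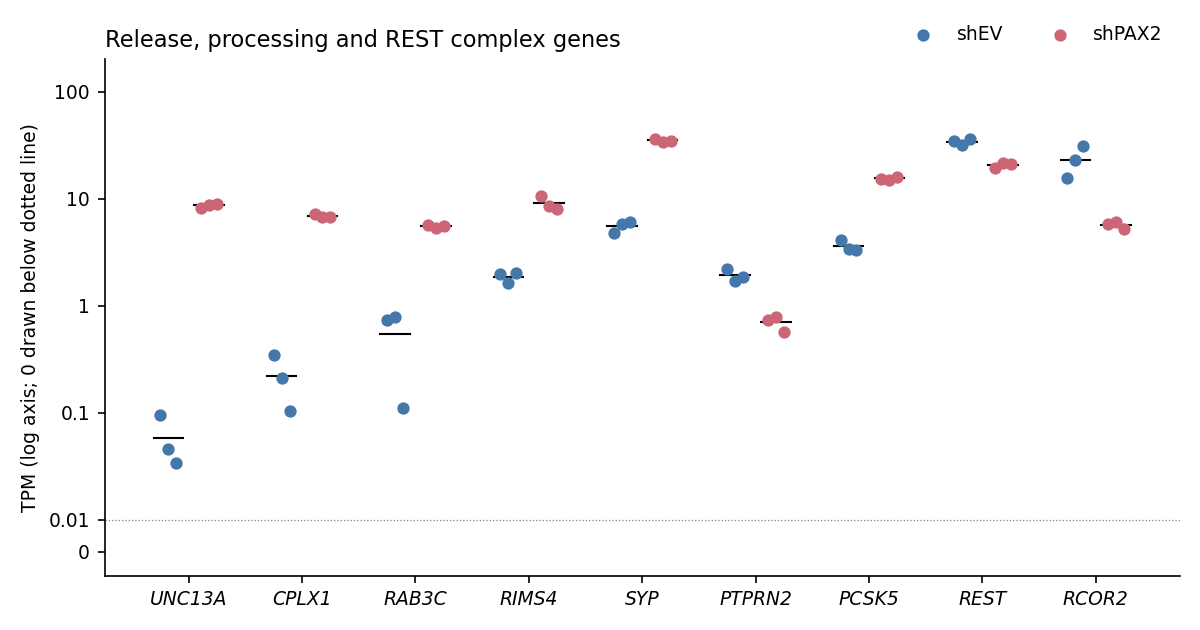
TPM in each library of release genes (*UNC13A*, *CPLX1*, *RAB3C*, *RIMS4*, *SYP*, *PTPRN2*), *PCSK5*, *REST* and *RCOR2*, on a log axis, with shEV in blue, shPAX2 in red and black bars at group means. *UNC13A* and *CPLX1* are below 0.5 TPM in every shEV library. No gene plotted has overlapping groups, where 44.7% of all listed genes have none. All but *REST* were called past both thresholds, so nothing is read from the lack of overlap.

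Markers of neuroendocrine and neuronal cells were read beside these results. Of 20 markers, 14 were listed, 8 of those were below 0.5 TPM in every library, and 6 were tested. *SYP* (synaptophysin, a vesicle membrane protein) rose from 5.52 ± 0.687 to 34.9 ± 1.41 TPM (log2 fold change 2.56, limma adjusted p = 2.87e-07), and *RTN1* fell from 2.47 ± 0.487 to 0.452 ± 0.148 TPM (log2 fold change -1.64, limma adjusted p = 0.000204). *NCAM1*, *ENO2* and *UCHL1* were below 0.5 TPM in every library. The summed level of the list was 189.8 to 200.5 TPM in shEV and 269.7 to 285.6 TPM in shPAX2, most of it the tubulin *TUBB3*, at 169.3 ± 4.38 and 220.6 ± 9.45 TPM. Of 8 endometrial epithelial markers 5 were listed and 3 tested, with 2 higher past both thresholds, where 1.43% of all tested genes were higher. *EMX2*, with 1, 1 and 0 reads in shEV and 0.886 TPM on average in shPAX2, passed the filter only through its shPAX2 libraries. *HOXA10* rose from 8.88 ± 1.02 to 29.5 ± 3.79 TPM, and *MSX1* fell from 12.6 ± 0.998 to 9.06 ± 0.737 TPM. *PAX8* and *ESR1* had at most 1 read in any library. These 5 genes were named after their values were seen. Of 13 stromal, immune and endothelial markers 9 were listed and 5 tested. Past both thresholds 1 was higher (against 1.43% of all tested genes) and 1 lower (against 3.11%). The summed level of this last list was 851 to 889 TPM in shEV and 600 to 690 TPM in shPAX2. It holds opposite differences of collagen genes, named here after their values were seen: *COL1A2* fell from 836 ± 24.3 to 390 ± 43.1 TPM and *COL3A1* rose from 35.1 ± 8.25 to 242 ± 6.14 TPM. The part of other cell types in the results was not tested beyond these levels.

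Genes with the most similar pattern were found by the root mean square difference, over the 6 libraries, between log2(TPM + 0.5) profiles centred on the shEV mean. For *VGF* the nearest were *AFF3* (0.16), *EVA1C* (0.27), *CPA4* (0.44), *SEZ6L2* (0.70) and *NEDD9* (0.73). *AFF3* and *EVA1C* had at most 2 reads in any shEV library, so, unlike *VGF*, they were at the limit of detection in control cells. For *CPE* the nearest were *GRIP1* (0.16), *KITLG* (0.17), *NRP1* (0.18), *LPPR4* (0.23) and *TNIK* (0.26), all of which had higher levels in shEV, from 7.65 to 18.5 TPM on average, and 0.0430 to 1.09 TPM in shPAX2. These are likenesses among profiles that differ mainly by group, and they depend on the pseudocount of 0.5. With 0.1 the log2 fold changes were 7.48 for *AFF3* and 7.09 for *EVA1C*, beside 5.69 for *VGF*. Those of *CPA4*, *SEZ6L2* and *NEDD9* were 5.00, 5.28 and 4.33. For *NRP1* the value with 0.1 was -5.76, beside -4.10 for *CPE*, and the other *CPE* neighbours lay from -4.98 to -3.99.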

How the data were processed

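RNA-seq of AN3CA cells was read from TPM values that the authors deposited for 17471 genes in 6 libraries. Per the labels, libraries were stranded total RNA, and the submitters' processing notes name bcl2fastq, STAR, Subread, featureCounts, edgeR and hg19 without versions. TPM is a share of the library total, so a change in abundant genes shifts the rest. Within each gene the TPM ratios were ratios of whole numbers (largest relative deviation 7.15e-14), and whole reads were recovered for all 17471 genes, with 295 genes scaled by 2 or more so that every gene length was a whole number of bases. Reads carry no molecular identifiers, so intervals and the limit of 3 reads cover counting error only.

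Genes with at least 0.5 TPM in at least 3 libraries were tested on log2(TPM + 0.5), 3 shPAX2 against 3 shEV libraries, with the moderated two-sided test of limma 3.58.1 in R 4.3.3 (robust eBayes with an intensity trend), no covariate and Benjamini-Hochberg adjustment over 13163 genes. Calls needed an adjusted p under 0.05 and a log2 fold change of at least 1 in size. The fit and the read recovery were tested on simulated data. Tables used Python 3.11.15, and gene positions came from a GRCh37 annotation. The genes examined and the pathway and marker lists were chosen with earlier results of these data known. Start-site sequences are not reported here. Named genes were the 10 of the set, *PAX2*, *REST*, *PCSK2*, *FURIN*, *C3AR1* and *C1QBP*, up to 6 called genes per pathway list with a mean of at least 1 TPM in a group, and the 5 nearest profiles to *VGF* and to *CPE*, with additions stated in the text. Markers served to check the labels and other cell types. Alternatives were other pseudocounts, filters, scalings and thresholds, a replicate block, voom on recovered reads, eBayes without trend and robust, and leaving out each library.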

Additional observations from a re-analysis of the deposited data

How the results depend on the processing

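No result listed here reversed under any alternative. The 598 calls over all genes became 303 when at least 5 TPM in at least 3 libraries was required, which tests 10633 genes, and ranged from 484 to 610 when 1 library was left out, with 100 to 134 higher calls in place of 188 without a shPAX2 library. The 11 calls of the pathway lists ranged from 7 to 11 when 1 library was left out, with 7 without shPAX2 replicate 3. The log2 fold change of *VGF* was 5.69 with a pseudocount of 0.1, 4.62 with 1, 5.23 after quantile normalization and 5.85 with voom on recovered reads, and 5.05 to 5.18 without 1 library. That of *CPE* was -4.10 with a pseudocount of 0.1, -3.61 with 1, -3.68 after quantile normalization and -4.10 with voom, and -3.94 to -3.78 without 1 library. For low genes the pseudocount sets the value: *CHGA* was 3.60 with 0.1 and 1.08 with 1, and *CHGB* 3.09 and 0.87, beside 1.69 and 1.40 with 0.5. Of the other named genes' values, 325 kept their direction and side of the threshold (an adjusted p under 0.05 alone for genes under the fold threshold). Another 22 lost it, all of *APLN*, *PTPRN2*, *FURIN* or *C1QBP*. Settings that did not test a gene, such as *UNC13A* and *CPLX1* without a shPAX2 library, are not counted. Most of these genes were named for being called or for lying nearest to *VGF* or *CPE*, so these counts are a description only. *C1QBP* had a limma adjusted p of 0.0634 with no filter, 0.0620 with the replicate block and 0.0747 without trend and robust. No pairing by replicate number was seen, with correlations of deviations of same-numbered libraries of -0.052, 0.081 and 0.0014. Shared handling of libraries was not tested. A fit with the replicate block gave 588 calls over all genes and 11 in the pathway lists. Depth limits *CHGA*, *CHGB*, *SCG3* and *SCG5*, which had at most 6 reads in any shEV library.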
